A study of Homo sapiens with 17 samples.

Results

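The C-terminal domain (CTD) of FOXA2 was studied on 2 DNA-binding proteins: full-length FOXA2, which carries it naturally, and full-length SOX2 to which it was fused. The members are the 4 samples of these groups among 17 in the series, FOXA2FL and SOX2FLFOXA2CTD, each with 2 biological replicates and each represented by 1 combined peak list. Counting the autosomes and chromosome X, the fusion list held 7844 peaks and the FOXA2FL list 44637, together 52481 of the 200799 peaks in the 7 combined lists used here. The rule uses these group names and chromosomes and no measured value, though the pair of groups was picked with earlier results of these data known.

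All groups are U2OS cells, a line from a human osteosarcoma, with a stable Tet-on construct from which the factor is switched on by doxycycline. FOXA2FL carries Tet-on FOXA2 and the fusion Tet-on SOX2FOXA2CTD; both were treated with doxycycline at 500 ng/ml for 4 days, as were the groups used for reference, FOXA2dCTD, SOX2FL, FOXA1FL, FOXA1dCTD and FOXA3dCTD (the extraction protocol writes 500 ng/ul, a conflict that the sources used here do not settle). Bound DNA was recovered with a Flag antibody and sequenced (ChIP-seq). The factors act from a construct in 1 cell line, and whether a line is 1 clone is not given in the sources used here. Peaks do not measure expression, so the labelled cell type was not checked.

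FOXA2 belongs to the forkhead family, whose winged-helix domain recognises a core resembling TGTTTAC and can contact DNA that is wrapped in nucleosomes; in the embryo it is known for opening endoderm and liver genes. SOX2 binds through an unrelated HMG box that bends DNA at a core resembling CATTGT and is known for pluripotent and neural cells. The CTD lies outside the DNA-binding domain of FOXA2 and contains regions known for transactivation and histone contact. A fusion that carries this CTD on SOX2 therefore shares with FOXA2FL a domain that does not itself recognise a DNA sequence.

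The promoters that peaks overlap by at least 1 bp show part of the DNA concerned. Over 15812 promoters of coding genes in the RefSeq promoter table (GRCh38.p14, 250 bases before to 50 after the start), a fusion peak lay on 550, which is 3.48%, and a FOXA2FL peak on 1121, which is 7.09%. Peaks of both lists lay on 130 of them, 23.6% of the fusion's promoters (95% interval 20.3 to 27.4) and 11.6% of those of FOXA2FL (9.85 to 13.6), and on 129 (0.816% of all) the peaks themselves overlapped. Shown are the 250 bases before the start for the 2 strongest shared promoters, the 2 strongest with a fusion peak only and, chosen after their sequence was known, the 2 strongest with a FOXA2FL peak only that hold a forkhead word. Strength is the lower of the −log10 p values that the authors' lists give for the replicates of a peak. Sequences run 5′ to 3′ on the strand of the gene, in GRCh38.p14 from RefSeq. Capitals mark a forkhead word (TGTTTAC or TGTTGAC) or a SOX word (CATTGT or CTTTGT), searched on both strands.
MTF2 (chr1:93079033-93079282, plus strand) and STX16 (chr20:58651033-58651282, plus strand) had a peak in both lists.
MTF2: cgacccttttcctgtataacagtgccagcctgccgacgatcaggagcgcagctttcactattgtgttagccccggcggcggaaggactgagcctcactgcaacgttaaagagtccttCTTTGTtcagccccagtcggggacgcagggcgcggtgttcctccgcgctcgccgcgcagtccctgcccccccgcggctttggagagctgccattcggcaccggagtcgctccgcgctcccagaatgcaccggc
STX16: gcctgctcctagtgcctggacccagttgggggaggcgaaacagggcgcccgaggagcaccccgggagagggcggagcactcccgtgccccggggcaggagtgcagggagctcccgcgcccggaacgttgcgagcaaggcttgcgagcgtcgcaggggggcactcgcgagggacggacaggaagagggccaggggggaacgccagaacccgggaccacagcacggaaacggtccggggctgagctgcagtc
ARVCF (chr22:19987197-19987446, minus strand) and ARID1A (chr1:26695765-26696014, plus strand) had a fusion peak only.
ARVCF: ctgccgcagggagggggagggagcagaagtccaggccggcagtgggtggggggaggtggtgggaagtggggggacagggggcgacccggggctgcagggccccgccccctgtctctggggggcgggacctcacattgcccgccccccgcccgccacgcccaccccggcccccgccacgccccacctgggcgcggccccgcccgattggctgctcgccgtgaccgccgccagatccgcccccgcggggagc
ARID1A: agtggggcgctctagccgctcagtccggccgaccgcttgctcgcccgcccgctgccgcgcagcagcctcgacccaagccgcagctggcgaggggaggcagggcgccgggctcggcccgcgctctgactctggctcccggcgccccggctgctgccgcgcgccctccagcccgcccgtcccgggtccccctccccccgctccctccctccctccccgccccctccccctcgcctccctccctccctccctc
RSRC1 (chr3:158109839-158110088, plus strand) and DUSP11 (chr2:73780150-73780399, minus strand) had a FOXA2FL peak only.
RSRC1: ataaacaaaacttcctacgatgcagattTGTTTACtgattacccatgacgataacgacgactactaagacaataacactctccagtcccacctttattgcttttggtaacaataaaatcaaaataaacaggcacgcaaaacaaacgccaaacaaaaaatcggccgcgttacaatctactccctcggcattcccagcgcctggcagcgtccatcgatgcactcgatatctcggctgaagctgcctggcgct
DUSP11: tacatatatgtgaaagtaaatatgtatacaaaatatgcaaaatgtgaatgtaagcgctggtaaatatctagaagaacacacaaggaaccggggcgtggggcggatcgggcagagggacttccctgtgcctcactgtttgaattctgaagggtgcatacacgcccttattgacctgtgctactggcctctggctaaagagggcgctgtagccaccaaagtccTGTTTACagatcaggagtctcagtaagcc

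MTF2 encodes an accessory subunit of Polycomb repressive complex 2. The fusion's replicates gave −log10 p values of 27.3 and 15.98 at its promoter, and those of FOXA2FL 5.25 and 18.0. The fusion summit lay 148 bp before the start and the FOXA2FL summit 5 bp after it, 153 bp apart, and the stretch shown holds 1 SOX word and no forkhead word. At STX16, which encodes a syntaxin of the Golgi, the values were 4.18 and 5.65 for the fusion and 4.08 and 5.08 for FOXA2FL, the summits lay 16 bp apart at the start, and the stretch shown holds neither word.

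At ARVCF, which encodes a catenin of cell junctions, the fusion's −log10 p values were 6.34 and 6.21, and at ARID1A, which encodes a subunit of the BAF chromatin remodeler, they were 4.95 and 5.31. GC made up 80% and 78% of these 2 windows, and neither stretch holds a word of either kind. Each of these peaks reached only the edge of the stretch shown. The ARVCF summit lay 186 bp after the start, and the ARID1A summit lay farther before the start than the 250 bases shown. The lack of a word therefore does not describe the DNA at these summits. RSRC1 encodes a splicing-related protein and DUSP11 an RNA phosphatase. The FOXA2FL values were 10.0 and 8.45 at RSRC1 and 13.6 and 7.66 at DUSP11, and the forkhead word lay 97 bp and 44 bp from the summit. GC made up 47% and 50% of these windows.

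The forkhead words were found in promoters with a FOXA2FL peak only more often than in those with a shared peak or a fusion peak only. The whole promoter window of 300 bases was searched, so a word need not lie under the peak. Peaks away from promoters were not searched. One of the forkhead words was present in 4.35% of all 15812 promoters. It was present in 112 of the 991 promoters with a FOXA2FL peak only, 11.3% (9.48 to 13.4), in 6 of the 129 shared promoters, 4.65% (2.15 to 9.78), and in 9 of the 420 with a fusion peak only, 2.14% (1.13 to 4.02). FOXA2FL-only promoters exceeded fusion-only promoters by 9.16 percentage points (6.54 to 11.5) and shared promoters by 6.65 (1.21 to 9.93). Intervals here and below are Wilson or Newcombe 95% intervals over peaks or promoters; they cover counting error only, since each group has 1 list and the spread between libraries cannot be had. For that reason no p-value is given, and the depth of every library is unknown.

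In the combined lists the intervals of the classes overlapped for the SOX words. They were present in 19.3% of all promoters, in 20.2% of the shared ones (14.1 to 27.9), in 18.6% of those with a fusion peak only (15.1 to 22.6) and in 16.8% of those with a FOXA2FL peak only (14.6 to 19.2), with a difference between the last 2 classes of 1.82 points (−2.39 to 6.38). The fusion's first-replicate list gave another value: of 780 promoters with a peak of that list and no FOXA2FL peak, 191 held a SOX word, 24.5% (21.6 to 27.6), above all promoters and above FOXA2FL-only promoters. Base composition moved with the class: the median GC was 67.0% in fusion-only promoters, 63.0% in FOXA2FL-only promoters and 62.7% in shared and in all promoters. At or under the median GC of all promoters the forkhead words were present in 14.0% of FOXA2FL-only, 7.69% of shared and 2.78% of fusion-only promoters, against 6.57% of all. Over it the shares were 8.79%, 1.56% (1 of 64 promoters), 1.81% and 2.11%, so FOXA2FL-only promoters stood highest on both sides while the order of the other classes changed. For the SOX words, the shares at or under the median GC ran from 23.1% of shared promoters to 28.4% of all. Over it they were 17.2% of shared, 14.1% of fusion-only (10.5 to 18.7) and 9.96% of FOXA2FL-only promoters (7.66 to 12.9), against 10.2% of all. The intervals for the SOX words overlapped on both sides. The words are short strings, and no match says only that these letters are not in the window.

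**Figure D1:**
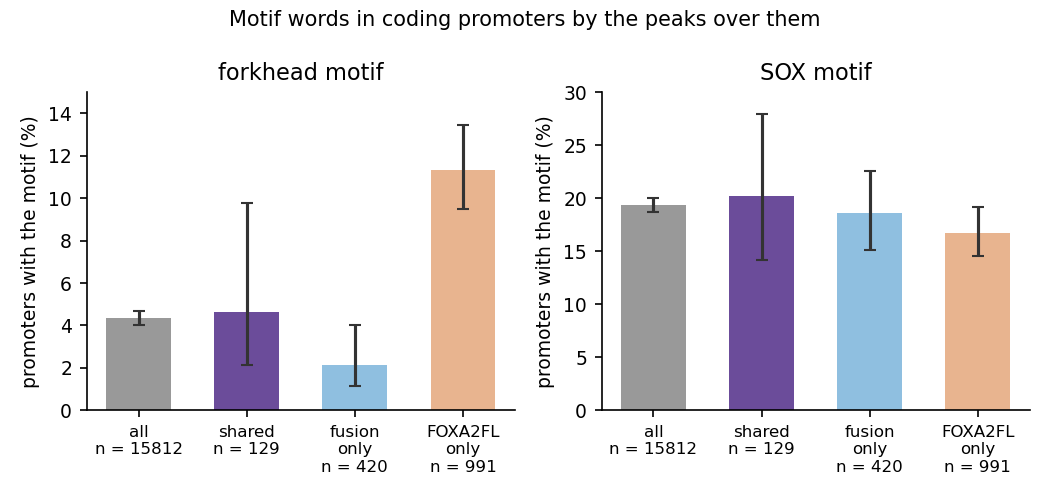
Share of coding promoters (%) that hold a forkhead word (left) or a SOX word (right), over all promoters and by the peaks on them; bars are shares and lines Wilson 95% intervals. FOXA2FL-only promoters stand at 11.3% for the forkhead words, above the other 3 bars, while the SOX bars lie between 16.8% and 20.2% with overlapping intervals.

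Few sites were common to both proteins. Of the fusion peaks, 1304 of 7844 overlapped a FOXA2FL peak by at least 1 bp, 16.6% (15.8 to 17.5), and of the FOXA2FL peaks 1312 of 44637 overlapped a fusion peak, 2.94% (2.79 to 3.10). FOXA2FL peaks cover 0.973% of the chromosomes up to the last annotated gene and fusion peaks 0.165%, so both shares stood above the part of the genome that the other list covers. Peaks of a median 576 bp in the fusion list and 575 bp in the FOXA2FL list meet more of the other list than a single base does, so this is a loose reference. Fusion peaks without a FOXA2FL peak are called fusion-only below, and the reverse FOXA2FL-only.

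The 2 lists differ in strictness and in where their peaks lie, and both facts touch what follows. The irreproducible discovery rate (IDR), which measures how poorly the rank of a peak agrees between replicates, reached 0.920 at the weakest fusion peak and 0.351 at the weakest FOXA2FL peak, with medians of 0.725 and 0.185. On every chromosome the longest run of DNA between annotated genes was set apart as its gene-free stretch. These stretches, 5.43% of the span in all, held 2115 fusion peaks, 27.0%, of which 1121 were on chromosome 1 and 610 on chromosome 13, but 2318 or 5.19% of the FOXA2FL peaks. Outside these stretches 811 of 5729 fusion peaks were shared, 14.2% (13.3 to 15.1), and 815 of 42319 FOXA2FL peaks, 1.93% (1.80 to 2.06); inside, the shares were 23.3% and 21.4%. At the FOXA2FL limit of IDR 1470 fusion peaks were left, of which 76.5% lay in the stretches; 28.0% of the 1470 were shared, and 24.3% of the 346 outside the stretches (20.1 to 29.1). With equal numbers of the strongest peaks of both lists 5.02% of each were shared. The fusion's first replicate alone gave 42289 peaks, of which 10.4% overlapped FOXA2FL, and it reached 9.71% of the FOXA2FL peaks.

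Peaks outside the stretches are described from here on unless another set is named. Fusion-only summits lay a median of 16.1 kb from the nearest FOXA2FL summit (quartiles 6.33 and 35.8 kb), and 36.5% had one within 10 kb. FOXA2FL-only summits lay a median of 166 kb from the nearest fusion summit, and 6.08% had one within 10 kb. The FOXA2FL list is the denser by far, so these distances are not alike in scale.

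Sites common to both proteins lay near gene starts more often than the sites of either alone. A summit lay within 1 kb of the start of a protein-coding gene for 197 of the 811 shared fusion peaks, 24.3% (21.5 to 27.4), and for 190 of the 815 shared FOXA2FL peaks, 23.3% (20.5 to 26.3). Among fusion-only peaks it was 555 of 4918, 11.3% (10.4 to 12.2), and among FOXA2FL-only peaks 1760 of 41504, 4.24% (4.05 to 4.44). Shared fusion peaks exceeded fusion-only peaks by 13.01 points (10.0 to 16.2), and fusion-only peaks exceeded FOXA2FL-only peaks by 7.04 (6.17 to 7.98). Over all peaks, stretches included, these 2 differences were 6.62 and 4.42 points. The second rests on the combined list: with the first-replicate list, stretches included, it was 0.255 points (−0.0156 to 0.526), and at the stricter IDR limit it turned to −1.53, or to 6.89 with the stretches left out. The first turned to −2.55 over all peaks when shared meant summits within 100 bp. Shared peaks were also wider. Their median width was 673 bp in the fusion list, against 598 bp for fusion-only peaks. In the FOXA2FL list it was 751 bp, against 584 bp for FOXA2FL-only peaks. A wide peak meets another list by 1 bp more easily, and the part of width in these differences was not tested.

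The shape of the distribution around starts differed as well. For genes whose strand is known, fusion-only summits within 1 kb of a start had a median absolute distance of 192 bp and 60.4% (55.8 to 64.8) lay within 250 bp, with a median position 4 bp before the start. FOXA2FL-only summits had a median absolute distance of 343 bp, 41.8% (39.1 to 44.5) lay within 250 bp and the median position was 59 bp after the start. Shared fusion summits resembled fusion-only summits, at 57.2% (49.6 to 64.5) within 250 bp, and shared FOXA2FL summits stood at 54.8% (47.0 to 62.4), above the FOXA2FL-only peaks.

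Location between the ends of coding genes varied less. It held 49.8% of the shared fusion peaks, 45.5% of the fusion-only peaks, 52.0% of the shared FOXA2FL peaks and 50.1% of the FOXA2FL-only peaks; the difference of fusion-only minus FOXA2FL-only peaks was −4.52 points (−5.99 to −3.05), and −13.7 points with the stretches included. Summits over 50 kb from any coding gene start and in no coding gene made up 31.9% of fusion-only and 33.7% of FOXA2FL-only peaks but 23.8% of the shared peaks of either list. The ends of long noncoding RNA genes, for which strand was not used, showed the same order as coding starts: a summit lay within 1 kb of either end of one for 10.7% of shared fusion peaks, 5.98% of fusion-only peaks and 3.42% of FOXA2FL-only peaks. Transfer RNA genes were near few peaks, but 8 of the 811 shared fusion peaks lay within 1 kb of either end of one, 0.986% (0.501 to 1.93), against 8 of the 4918 fusion-only peaks, 0.163% (0.0825 to 0.321).

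**Figure D2:**
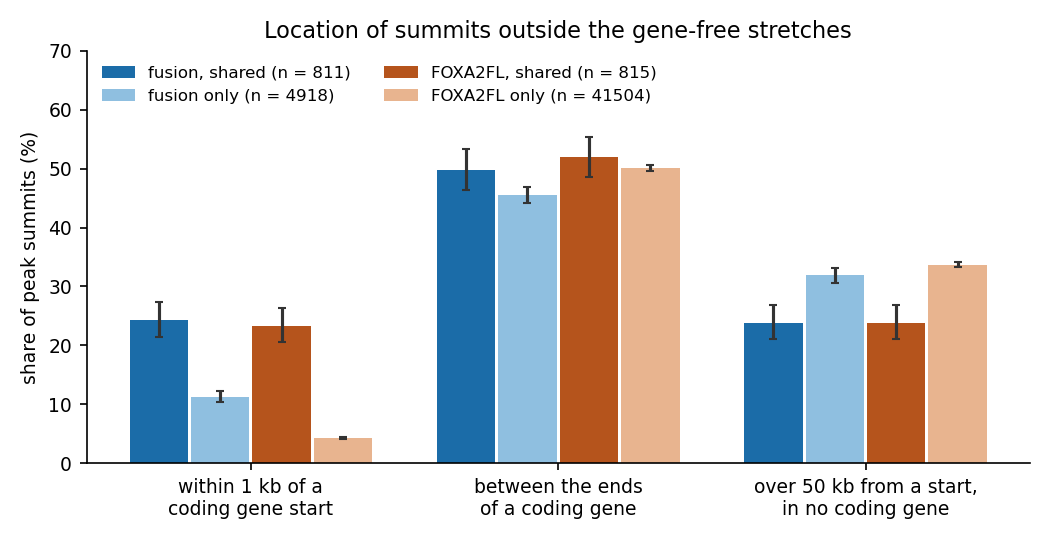
Share of peak summits (%) in 3 locations for the 4 classes of peaks outside the gene-free stretches; bars are shares and lines Wilson 95% intervals. Near starts the shared peaks reach 24.3% and 23.3%, fusion-only peaks 11.3% and FOXA2FL-only peaks 4.24%, while the 4 classes lie between 45.5% and 52.0% within coding genes.

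Where both proteins had a peak, their summits often lay apart, as did the summits of each list's own replicates. The median distance between the fusion summit and the nearest overlapping FOXA2FL summit was 177 bp (158 to 197) in the 811 pairs outside the stretches, with quartiles of 68.5 and 354.5 bp, and 32.1% lay within 100 bp. At the same peaks the summits of the fusion's own replicates lay a median of 147 bp apart and those of FOXA2FL 78 bp apart. In 305 of the 811 pairs, 37.6%, the distance between the proteins was larger than both replicate distances, and in the other pairs it did not exceed the larger of them. Near coding starts the median was 221 bp (177 to 255), against 165.5 bp (148 to 183) elsewhere. Inside the stretches the 493 pairs had a median of 24 bp (22 to 27) and 87.0% lay within 100 bp, so that the median over all 1304 pairs, 82 bp, mixes 2 unlike sets.

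**Figure D3:**
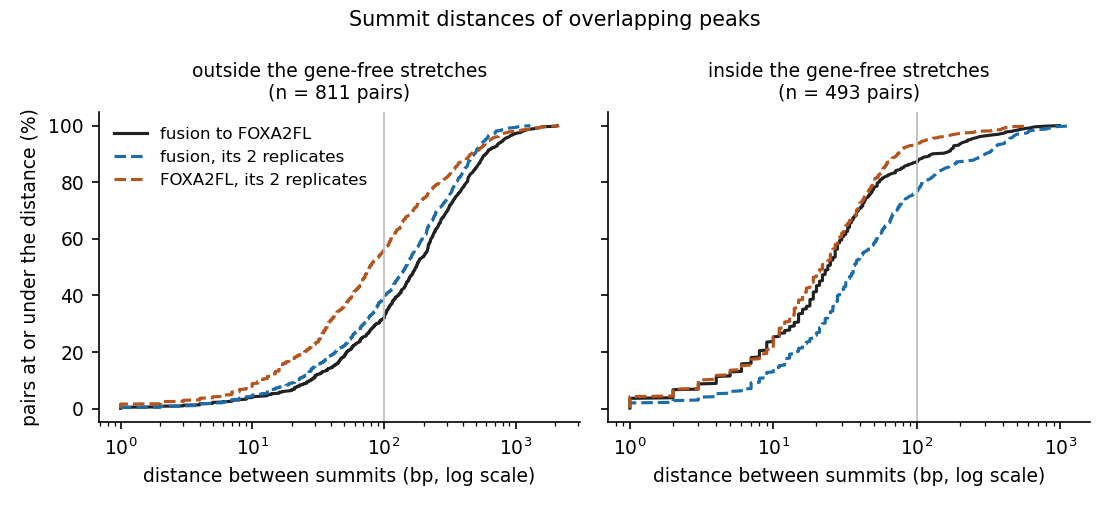
Cumulative share of pairs (%) against the distance between summits (bp, log scale) for overlapping peaks outside (left) and inside (right) the gene-free stretches, with the distance between the 2 replicates of each list at the same peaks; distances of 0 are drawn at 1 bp and the grey line marks 100 bp. Outside, the curve between the proteins runs to the right of both replicate curves, with a median of 177 bp against 147 and 78 bp; inside, it runs between them.

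Most fusion-only peaks were in none of the reference lists. The shared class is defined by a FOXA2FL peak, so its overlap with other FOXA lists is in part fixed by that. Of the shared fusion peaks 58.7% overlapped a peak of FOXA2dCTD, which is FOXA2 without the CTD, 47.2% one of FOXA1FL, 42.3% one of FOXA1dCTD and 18.9% one of FOXA3dCTD. For fusion-only peaks these shares were 8.99%, 6.95%, 4.92% and 1.73%. FOXA2FL-only peaks, which the fusion lacks, stood at 51.4%, 40.9%, 53.2% and 8.83%, and the shared FOXA2FL peaks at 61.3%, 47.98%, 44.5% and 19.3%. The difference of shared minus FOXA2FL-only peaks was −8.68 points for FOXA1dCTD (−12.1 to −5.22) and above 0 for the other 3, at 9.97 (6.54 to 13.3), 7.04 (3.59 to 10.5) and 10.4 (7.86 to 13.3) for FOXA2dCTD, FOXA1FL and FOXA3dCTD. None of the 5 reference lists had a peak at 84.3% of the fusion-only peaks (83.3 to 85.3), against 23.3% of the shared ones (20.5 to 26.3) and 25.4% of the FOXA2FL-only peaks. These lists differ in size and IDR limit, so a share is compared across classes and not across factors. Not all fusion-only peaks recurred within the fusion itself. Its first-replicate list had a peak at 68.7% of them (67.4 to 69.9), against 78.9% of the shared fusion peaks (76.0 to 81.6). The median IDR was 0.775 for fusion-only peaks and 0.745 for shared fusion peaks.

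SOX2FL, the protein without the FOXA2 CTD, gave no such reference outside the stretches. Its list holds 1365 peaks, of which 1245 lie in the stretches and 120 outside. It had a peak at 20 of the 811 shared fusion peaks, 2.47% (1.60 to 3.78), and at 31 of the 4918 fusion-only peaks, 0.630% (0.444 to 0.893). The difference of 1.84 points (0.933 to 3.16) became 12.2 with the stretches included.

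FOXA2 sites were also divided by whether FOXA2dCTD had them, and the fusion was looked for at each kind. Outside the stretches the fusion had a peak at 2.29% (2.10 to 2.498) of the 21826 FOXA2FL peaks that FOXA2dCTD also had, at 1.54% (1.38 to 1.71) of the 20493 that it lacked, and at 1.48% (1.35 to 1.62) of the 29464 FOXA2dCTD peaks that FOXA2FL lacked. The last 2 differed by 0.0573 points (−0.158 to 0.279), an interval that includes 0. With the stretches included these 2 shares were 2.21% and 1.74%, and the difference was 0.464 points (0.222 to 0.713). With the first-replicate list the shares outside the stretches were 10.7%, 6.86% and 6.84%, and the same difference was 0.0220 points (−0.426 to 0.475); with the stretches included it was 0.447 (−0.00185 to 0.900). Read from the other side, 61.3% of FOXA2FL peaks shared with the fusion were also FOXA2dCTD peaks, against 51.4% of those not shared, a difference of 9.97 points (6.54 to 13.3). At the stricter IDR limit that difference was 4.91 points with an interval that includes 0 (−5.70 to 15.0).

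**Figure D4:**
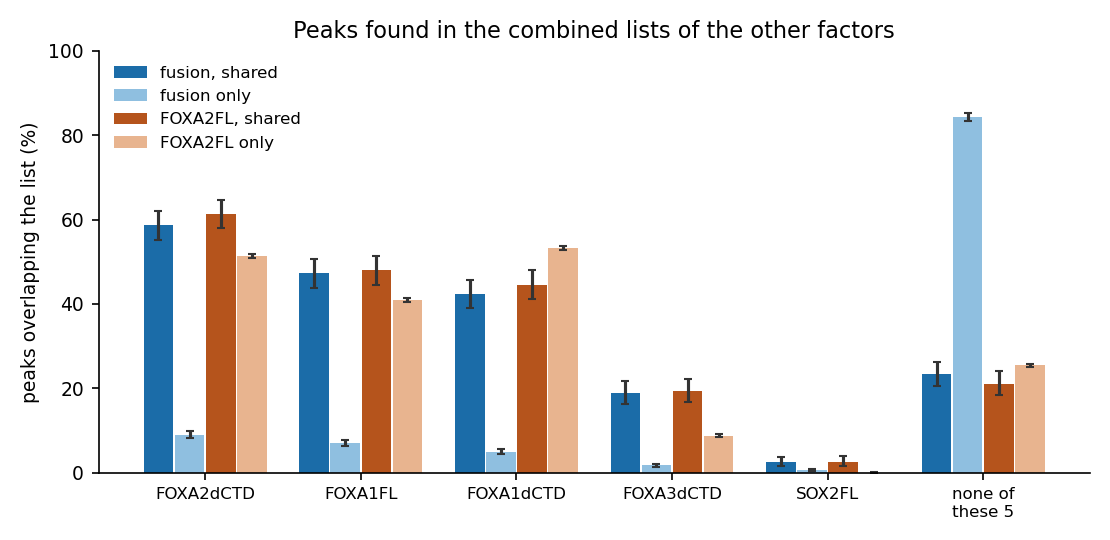
Share of peaks (%) of the 4 classes outside the gene-free stretches that overlap a peak in the combined list of another factor, and the share found in none of these 5 lists; lines are Wilson 95% intervals. Shared peaks stand at 58.7% and 61.3% for FOXA2dCTD and fusion-only peaks at 8.99%, while 84.3% of fusion-only peaks are in none of the 5 lists.

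Strength separated the classes little. Shared fusion peaks had a median of 2.88 (quartiles 2.57 and 3.20) and fusion-only peaks 2.74 (2.52 and 3.20), a ratio of medians of 1.05. With the fusion peaks divided into 4 equal groups by strength, 24.8% of the strongest group were shared, against 12.95% of the weakest, but 65.1% of the strongest group lay in the stretches; outside them the shares were 20.5% and 12.1%. Across the 811 shared peaks the strengths in both lists had a Spearman rho of 0.11, a description over peaks that share their libraries.

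Shared peaks were ranked by the lower of their strengths in both lists, so the 8 strongest stand high in each list by choice. The upper quartiles of shared peaks were 3.20 for the fusion and 3.02 for FOXA2FL. The MTF2 peak had the largest fusion strength of the 8 named ones, and the others had fusion strengths of 4.27 to 5.68 and FOXA2FL strengths of 4.08 to 6.95. A peak at chr9:40991628-40992721 in the fusion list, nearest to the forkhead gene FOXD4L6 but 136 kb from its start, had −log10 p values of 7.42 and 5.68, and its FOXA2FL partner 7.68 and 5.40, with summits 61 bp apart. The peak at chr2:113708659-113709368 lay within SLC35F5, a solute carrier gene, with 9.02 and 5.31 for the fusion and 14.3 and 6.95 for FOXA2FL, summits 57 bp apart. HEXIM1, which encodes an inhibitor of the elongation factor P-TEFb, had a peak 0.633 kb from its start with 5.34 and 4.28 against 5.02 and 5.43 and summits 20 bp apart.

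The remaining strongest shared peaks lay near LRATD1, within PKD1L1, which encodes a polycystin-family protein, and near AKAIN1 and the histone gene H3-7. Their summits lay 187 to 899 bp apart. The peaks named for LRATD1, AKAIN1 and H3-7 were 918, 562 and 564 kb from the gene's start, and the last was 0.0422 Mb from the gene-free stretch of chromosome 1. All 8 were in the fusion's first-replicate list, and each was in at least 1 of the reference lists.

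Fusion-only peaks included the strongest of the list outside the stretches. The peak at chr8:140156506-140157695, within TRAPPC9, a gene of the TRAPP vesicle-tethering complex, had −log10 p values of 166 and 68.2. It was also a SOX2FL peak and in none of the FOXA lists used here. The next had much lower values: 10.9 and 9.14 within ATP11A, which encodes a phospholipid flippase, 18.99 and 8.83 near the lens crystallin gene CRYBA4, and 11.3 and 8.77 within XXYLT1, which encodes a xylosyltransferase.

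Replicates did not always give like values at these sites. A peak near KCNJ2, a potassium channel gene 624 kb away, had 60.5 in one replicate column and 6.93 in the other. The peaks near USP46, EPN2 and TOP3B, which encode a deubiquitinase, an endocytic epsin and a topoisomerase, had strengths of 7.50, 7.04 and 6.68 and lay 38.0 to 49.3 kb from the gene's start. The CRYBA4 peak was also in the SOX2FL list, those of XXYLT1, EPN2 and TOP3B were each in 1 FOXA list, and those of ATP11A, USP46 and KCNJ2 were in none of the 5.

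The 8 strongest of the 41504 FOXA2FL-only peaks stood above all 815 shared FOXA2FL peaks, of which the highest had a strength of 14.1. The fusion's first-replicate list had none of the 8 either. Only 1.93% of FOXA2FL peaks were shared, and 7.57% of FOXA2FL-only peaks were in that list, so none among 8 is near these shares. With FOXA2FL peaks divided into 4 equal groups by strength, 2.11% (1.85 to 2.40) of the strongest group were shared, against 1.56% (1.34 to 1.81) of the weakest. At chr4:1427142-1429369, 22.4 kb from the homeobox gene NKX1-1, the FOXA2FL replicates gave 39.4 and 56.4. Within SLC35F1 they gave 35.5 and 32.6, within ADAMTS3, which encodes a procollagen protease, 34.1 and 31.6, and near ZNF217, a zinc finger gene, 27.1 and 46.1. The peaks near POLR1F, FAM86B2, POTEG and CHAC2 had strengths of 26.0 to 32.8. All 8 were FOXA2dCTD peaks, and each was in 2 to 4 of the reference lists, none of them that of SOX2FL.

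By gene, a peak was assigned where its summit lay between the ends of a coding gene or within 10 kb of them. Of 19974 coding genes, 670 had a shared peak, which is 3.35%; 2940 had a fusion peak, 14.7%; 10234 had a FOXA2FL peak, 51.2%; and 2389 had peaks of both lists, 12.0%. Of the latter, 1721 had none that overlapped, so that most genes with both proteins had them at separate sites. Genes with a shared peak had a median length of 53.9 kb, those with peaks of both lists at separate sites 82.1 kb and those with a fusion peak but no FOXA2FL peak 18.8 kb, against 24.2 kb over all coding genes, so gene length moves with these classes. Only 71 genes had a shared peak at the stricter IDR limit, and 2084 with the fusion's first-replicate list.

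TTC28, a gene of 23 fusion and 59 FOXA2FL peaks on chromosome 22, had the most shared peaks, 6. KIAA1671 followed with 5 shared among 15 and 25 peaks, DLGAP1, a synaptic scaffold gene, with 4 among 16 and 37, and LINGO2, a neuronal membrane protein gene, with 4 among 11 and 58. These counts were not adjusted for gene length. TTC28 and KIAA1671 lie on chromosome 22, where the share of fusion peaks that were shared was the highest of any chromosome, 21.3%. MAD1L1, which encodes a spindle checkpoint protein, was the one gene among the 15 with most fusion peaks that had more fusion peaks than FOXA2FL peaks, 9 against 6, and none was shared. LDLRAD4, DLG2 and LSAMP, with 8 to 11 fusion peaks, also had none shared.

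Gene lists were chosen for the known roles of both proteins and for the cell line, with earlier results of these data known. They were read against these shares of all coding genes: 51.2% for a FOXA2FL peak, 14.7% for a fusion peak and 3.35% for a shared one. No interval was computed for the shares of these short lists. Of 30 endoderm and liver regulators, 12 had a FOXA2FL peak and 4 a fusion peak, 40.0% and 13.3%, and none had a shared one. These are at or under the shares of all coding genes, and in a list of 30 a count of 0 shared genes is near the background of 3.35%. The 4 were HNF4A, NR5A2, PROX1 and NR2F2, all regulators of transcription, and each had 1 fusion peak and 1 to 5 FOXA2FL peaks at other positions. Of 29 pluripotency and neural genes, 12 had a FOXA2FL peak and 3 a fusion peak, 41.4% and 10.3%. JARID2, a subunit of Polycomb complexes, had a shared peak with −log10 p values of 4.04 and 4.28 for the fusion and 1.59 and 1.72 for FOXA2FL, with summits 180 bp apart. NOTCH1, a cell-surface receptor, had one with 16.1 and 3.29 against 2.27 and 2.44 and summits 54 bp apart. SOX1, a neural relative of SOX2, had a fusion peak and no FOXA2FL peak.

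Of 30 AP-1 and YAP-TEAD genes, which act in growth control and open chromatin of adherent cells, 24 had a FOXA2FL peak and 9 a fusion peak, shares of 80.0% and 30.0% that stand above those of all coding genes. Shared peaks lay at YAP1, the Hippo-pathway coactivator, with 5.90 and 2.57 for the fusion against 5.63 and 3.23 and summits 173 bp apart, and at FOSL2, with 3.07 and 3.07 against 2.08 and 1.56 and summits 1171 bp apart. JUN, FOS and FOSL1, which encode AP-1 subunits, each had 1 fusion peak and no FOXA2FL peak, but their fusion peaks were weak, with IDR values of 0.895, 0.842 and 0.810, and none was in the first-replicate list. Such IDR values were not confined to these genes. They were 0.890 at NR5A2, 0.871 at SOX1, and 0.890, 0.871, 0.847 and 0.847 at the shared fusion peaks of HMGB1, CDH13, FOSL2 and RPL4. Those of NOTCH1 and JARID2 had lower values, 0.215 and 0.428. TEAD4, VGLL4, AMOTL2 and MAFK had peaks of both lists at separate sites.

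The other lists gave similar mixtures. Of 30 osteoblast and mesenchymal genes 17 had a FOXA2FL peak and 5 a fusion peak (RUNX1, SP7, SPARC, ZEB1 and ZEB2), 56.7% and 16.7%, and none shared; SP7, a bone transcription factor, had 2 fusion peaks and no FOXA2FL peak. Of 30 extracellular matrix and adhesion genes 24 and 7 had one, 80.0% and 23.3%, with shared peaks at NID1, a basement-membrane protein, and CDH13, a cadherin, whose summits lay 218 and 40 bp apart. Of 30 chromatin genes 24 and 5 had one, 80.0% and 16.7%. HDAC9, a histone deacetylase gene, had 3 shared peaks among 5 fusion and 31 FOXA2FL peaks, and HMGB1, which encodes a chromatin protein, had 1. SMARCA4, which encodes the BAF ATPase, had 4 fusion peaks and no FOXA2FL peak, and ARID1A and HMGA2 had peaks of both lists at separate sites.

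Of 78 genes for ribosomal proteins, short genes used in every cell, 34 had a FOXA2FL peak and 14 a fusion peak, which is 43.6% and 17.9%, and 4 had a shared one: RPS24, RPL4, RPS12 and RPL8. Their summits lay 94, 286, 332 and 445 bp apart. The fusion strengths of these 4 peaks were 2.52 to 3.29 and the FOXA2FL strengths 1.74 to 3.39. RPL8 had no peak in the fusion's first-replicate list. Gene length differed between the lists. In the 3 lists with 80.0% of genes under FOXA2FL peaks the median was 20.9 kb for AP-1 and YAP-TEAD genes, 109 kb for matrix genes and 101 kb for chromatin genes; it was 31.1 kb for osteoblast, 13.4 kb for endoderm, 8.65 kb for pluripotency and 4.91 kb for ribosomal genes. The AP-1 and YAP-TEAD genes had a median below that of all coding genes, 24.2 kb. The part of length in these shares was not tested.

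The genes of the factors themselves were described apart, since constructs in the series carry their coding sequence. The constructs of FOXA2FL and the fusion are FOXA2 and SOX2FOXA2CTD, not FOXA1 or FOXA3. The fusion list had a peak over SOX2, with a strength of 3.62, and one over FOXA1, with 5.86. It had none over FOXA2 or FOXA3, and the FOXA2FL list had none over any of the 4 genes. The first-replicate list of the fusion had peaks over SOX2, FOXA1 and FOXA2, the last with a −log10 p of 5.26.

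The number of fusion peaks relative to FOXA2FL peaks varied between chromosomes. Outside the stretches the combined fusion list had 13.5 peaks per 100 FOXA2FL peaks, from 2.78 on chromosome X, where it had 14 peaks against 503, to 25.6 on chromosome 22, with 287 against 1123. Chromosomes 15, 20, 10 and 18 followed chromosome 22, at 24.5 to 20.0, and chromosome 5 was the lowest autosome at 7.18. In the first-replicate list the same ratio was 96.5 per 100 in total and ran from 65.6 on chromosome 19 to 123 on chromosome 11; chromosome X stood at 122, with 616 peaks. The low value of chromosome X is thus in the combined list and not in the first replicate alone. The share of fusion peaks that FOXA2FL shares ranged from 9.09% of 33 peaks on chromosome 19 to 21.3% of 287 on chromosome 22.

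**Figure D5:**
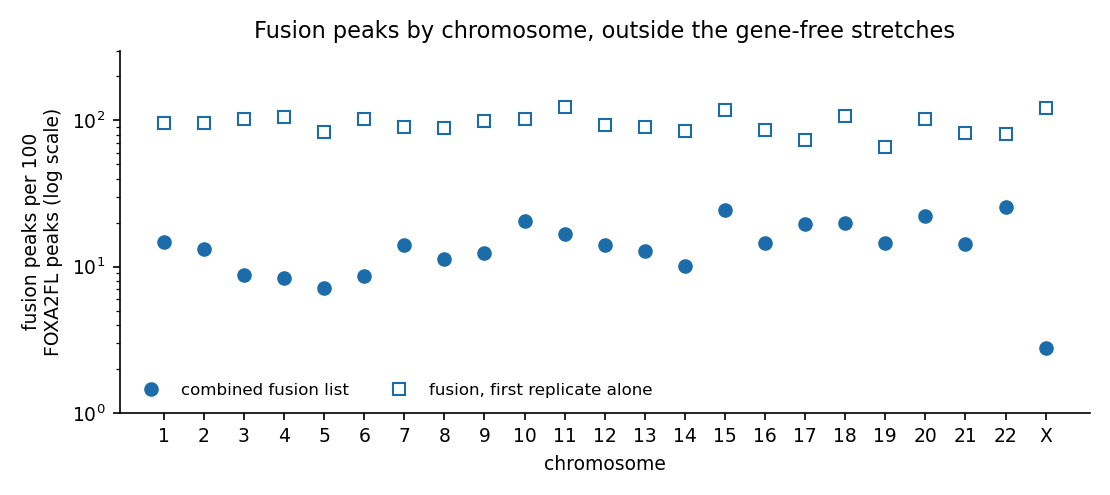
Fusion peaks per 100 FOXA2FL peaks (log scale) on each chromosome outside the gene-free stretches, for the combined fusion list (filled circles) and the first replicate alone (open squares). The combined list falls to 2.78 on chromosome X and reaches 25.6 on chromosome 22, while the first replicate stays between 65.6 and 123.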

How the data were processed

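Per the submitters' processing notes, FastQC 0.10.1, Trim Galore, Bowtie2 2.4.4, SAMtools 0.1.18, MACS2, deepTools 2.4.1 and the build hg38 were used; their roles and settings are not given in the sources used here. The authors deposited 1 combined list per group in the 20-column IDR layout, with the IDR score (125 times log2 of 1 over the IDR, at most 1000), −log10 p per replicate and summits, and a first-replicate fusion list whose fold enrichment is a ratio. The replicate columns carry no replicate number. Positions are 1-based.

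Computed here (Python 3.11.15, numpy 2.4.6, pandas 2.3.3) were overlaps of at least 1 bp, distances, and counts against RefSeq genes of GRCh38.p14 (59098 genes). A start was known by strand for 15812 of 19974 coding genes; for the rest either end counted. Functions passed 9 of 9 checks on simulated peaks. For each class the 8 strongest peaks were named, outside the stretches, over 10 kb from the factor genes and 1 per gene, with list members that have a shared peak; other genes were named after their values were seen. Members and lists were chosen with earlier results of these data known. Left out were contigs, the input and FOXA3FL. Alternatives covered IDR limits, stretches, overlap rules, windows and the first-replicate list; combining stretches with either list change was added after seeing the data.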

Additional observations from a re-analysis of the deposited data

Results flagged for a closer look

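Peaks on contigs other than chromosomes 1 to 22 and X entered no comparison. The fusion list held 51 such peaks on 37 contigs and the FOXA2FL list 439 on 154. Of the 51 fusion peaks, 11 overlapped a FOXA2FL peak, 21.6% (12.5 to 34.6), against 2.51% of the 439 (1.40 to 4.43). No control sample has a peak list here to set them against.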

How the results depend on the processing

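No paired analysis was possible because each list combines both replicates and its replicate columns carry no number, and the fusion's first-replicate list stands in for leaving a replicate out. Of 67 alternative values for 10 results, 9 stayed close, 56 moved and 2 reversed; the cause was not tested. The values compared include the gene-free stretches.

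Settings are abbreviated: strict (the FOXA2FL limit of IDR on both lists), no-stretch (stretches left out), close (summits within 100 bp) and first (the fusion's first-replicate list). The share of fusion peaks shared, 16.6%, became 28.0% strict, 14.2% no-stretch, 8.78% close, 10.4% first, 9.35% first and no-stretch, 24.3% strict and no-stretch, 10.5% at 50% reciprocal overlap and 5.02% for equal numbers of the strongest peaks. The share of FOXA2FL peaks shared, 2.94%, became 0.930% strict, 1.93% no-stretch, 1.54% close, 9.71% first, 8.86% first and no-stretch, 0.201% strict and no-stretch, 1.85% at reciprocal overlap and 5.02% for equal numbers. The median summit distance, 82 bp, became 27 strict, 177 no-stretch, 53 at reciprocal overlap, 110 first, 131 first and no-stretch, and 161.5 strict and no-stretch.

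Near starts, shared minus fusion-only, 6.62 points, moved to 2.52 strict, 13.01 no-stretch and 14.7 with both, and reversed to −2.55 close. Fusion-only minus FOXA2FL-only near starts, 4.42 points, reversed to −1.53 strict and became 7.04 no-stretch, 6.89 with both, 5.49 close, 0.255 first, 0.179 first and no-stretch, and 3.48 at 2.5 kb. Inside genes that difference, −13.7, moved to −37.6 strict, −4.52 no-stretch, −8.49 with both, −7.10 first, and −8.31 first and no-stretch. The strength ratio, 1.08, became 1.31 strict, 1.05 no-stretch, 1.00 with both and 1.17 close, and single replicate columns gave 1.27 and 1.03. FOXA2dCTD recurrence, shared minus not, 12.5 points, moved to 17.1 strict, 15.5 close, and 4.91 strict and no-stretch. SOX2FL recurrence, 12.2 points, moved to 1.84 no-stretch, 28.8 close, 3.74 first, 0.652 first and no-stretch, and 7.37 strict and no-stretch. Genes with a shared peak, 670, became 71 strict with or without stretches, 203 close, 2084 first with or without stretches, and 383 between gene ends only.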
